A study of Mus musculus with 12 samples.

Results

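Genes of mitosis and of the kinetochore, numbering 38 by a fixed list of symbols, were followed through early factor-induced reprogramming of mouse embryonic fibroblasts. They were chosen by name alone, as probe sets whose only gene symbol was on the list, and 36 of the 38 had such a probe set, 1 each, out of 22180 genes with a probe set of their own. Ccnb1 and Ncapg had none and are not described. All 36 passed the filter on dim probe sets, which left 17860 genes to test. The fibroblasts came from E13.5 embryos, with the strain given as C57Bl/6 and 129X1/SvJ. All 4 groups carried the genotype Col1a1::tetOP-OKSM ; R26-M2rtTA, a doxycycline-inducible cassette of the reprogramming factors Oct4, Klf4, Sox2 and c-Myc (OKSM) at Col1a1 and a transactivator at Rosa26, and all were kept in embryonic stem cell medium with serum and LIF. The groups differed in the retroviral short hairpin, against CAF-1, the chaperone that places histones on newly replicated DNA, or against Renilla luciferase as the control, and in 3 or 6 days of doxycycline. Each group had 3 arrays numbered as replicates 1 to 3. No uninduced fibroblasts and no stem cell line were analysed here, so every comparison is among induced cells.

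In mitosis, condensins and topoisomerase II fold the chromosomes, Cdk1 with its cyclins drives entry, and the kinetochore, built on the centromere, binds spindle microtubules through the Ndc80 complex. The spindle assembly checkpoint holds back Cdc20, and thereby separase, until every kinetochore is attached, and Aurora and Polo-like kinases correct attachments and build the spindle. Most of these genes are transcribed in a wave in the second part of the cell cycle, so in a growing culture their RNA level follows the share of dividing cells, and induction of reprogramming factors is known to speed proliferation of fibroblasts early on. In RNA from whole cultures, fewer dividing cells and less of these RNAs per dividing cell cannot be told apart.

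Array intensities are given on the log2 scale throughout, and a log2 difference of 1 is a doubling. The median intensity of an array lay between 39.5 and 43.3 on the linear scale, and arrays of the same group correlated at r = 0.994 to 0.996 over the genes tested. Chaf1a, the CAF-1 subunit that gave the hairpin its target, read 7.44, 7.72 and 7.42 in the day 3 control arrays and 7.35, 7.18 and 7.19 in the day 3 knockdown arrays, which did not overlap. The difference of −0.29 ± 0.09 (SE) at day 3 did not pass (limma, adjusted p = 0.726), and neither did the −0.12 ± 0.09 at day 6 (adjusted p = 0.999). Of 12 fibroblast markers 11 passed the filter, Lum being the exception, and the summed linear intensity of the 12 ranged from 21119 to 22959 over the day 3 arrays and from 22281 to 24670 over the day 6 arrays. A pair of patterns between arrays bear on what follows. The mean log2 intensity of 17 interferon-stimulated genes, centred gene by gene, was 1.17 in replicate 2 of the day 3 knockdown and −0.21 to −0.02 in the other 11 arrays. The same mean over the 12 fibroblast markers was 0.41 and 0.36 in replicate 1 of the day 6 control and knockdown, and −0.13 to 0.03 in the other 10 arrays.

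Between day 3 and day 6, RNA of the mitosis and kinetochore genes went down in the control cells. Of the 36 genes, 21 fell and 0 rose (limma, adjusted p under 0.05), where 10.6% of all genes tested fell and 6.99% rose. The largest falls were in Ndc80 (1.56-fold), the spindle bundler Prc1 (1.54-fold), the cytokinetic scaffold Anln (1.54-fold) and the kinase Aurka (1.52-fold). All 36 differences were negative, with a median of −0.35, a 1.28-fold lower level, against 0.01 over all genes. For 31 of the 36 the 3 day 6 arrays lay below the 3 day 3 arrays, as they did for 19.3% of all genes. In the knockdown cells 11 of the 36 fell and 0 rose, where 10.5% of all genes fell and 7.46% rose. There 33 differences were negative, the median was −0.20, and 15 genes did not overlap between days, against 18.9% of all genes. The 11 were all among the 21 of the control, making 52.4% of that list and 100% of their own. The same overlap over all genes is not given here, so it is not shown to be particular to these genes. These time comparisons share no arrays, but they share a common estimate of the spread. Same-numbered arrays of the cell groups also deviated together, so the comparisons are not independent.

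Some markers of other cell types also differed between the days. Over all genes tested, 10.6% fell and 6.99% rose in the control, and 10.5% fell and 7.46% rose in the knockdown. With lists of 5 to 10 genes, a single call does not set a list apart from those shares. Of 5 neural markers tested, 2 fell in both cell groups (Tubb3 and Nefl) and 0 rose, with medians of −0.57 and −0.61 in control and knockdown. Of 8 macrophage and leukocyte markers tested, Cd68 fell in both and Itgam in the knockdown, and the summed linear intensity of the 9 listed with a probe set was 736 to 888 over the day 3 arrays and 452 to 501 over the day 6 arrays. Of 10 epithelial markers, 2 rose and 2 fell in the control, and 6 rose and 1 fell in the knockdown. Of 8 pluripotent markers, 0 changed in the control and 4 rose in the knockdown (Nanog, Sall4, Tdgf1 and Utf1). Of 7 endothelial markers, 2 rose in both, and of 5 muscle markers 0 and 1 rose. Their part in the differences of the mitosis genes was not tested, and these markers were named after their values were seen.

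**Figure D1:**
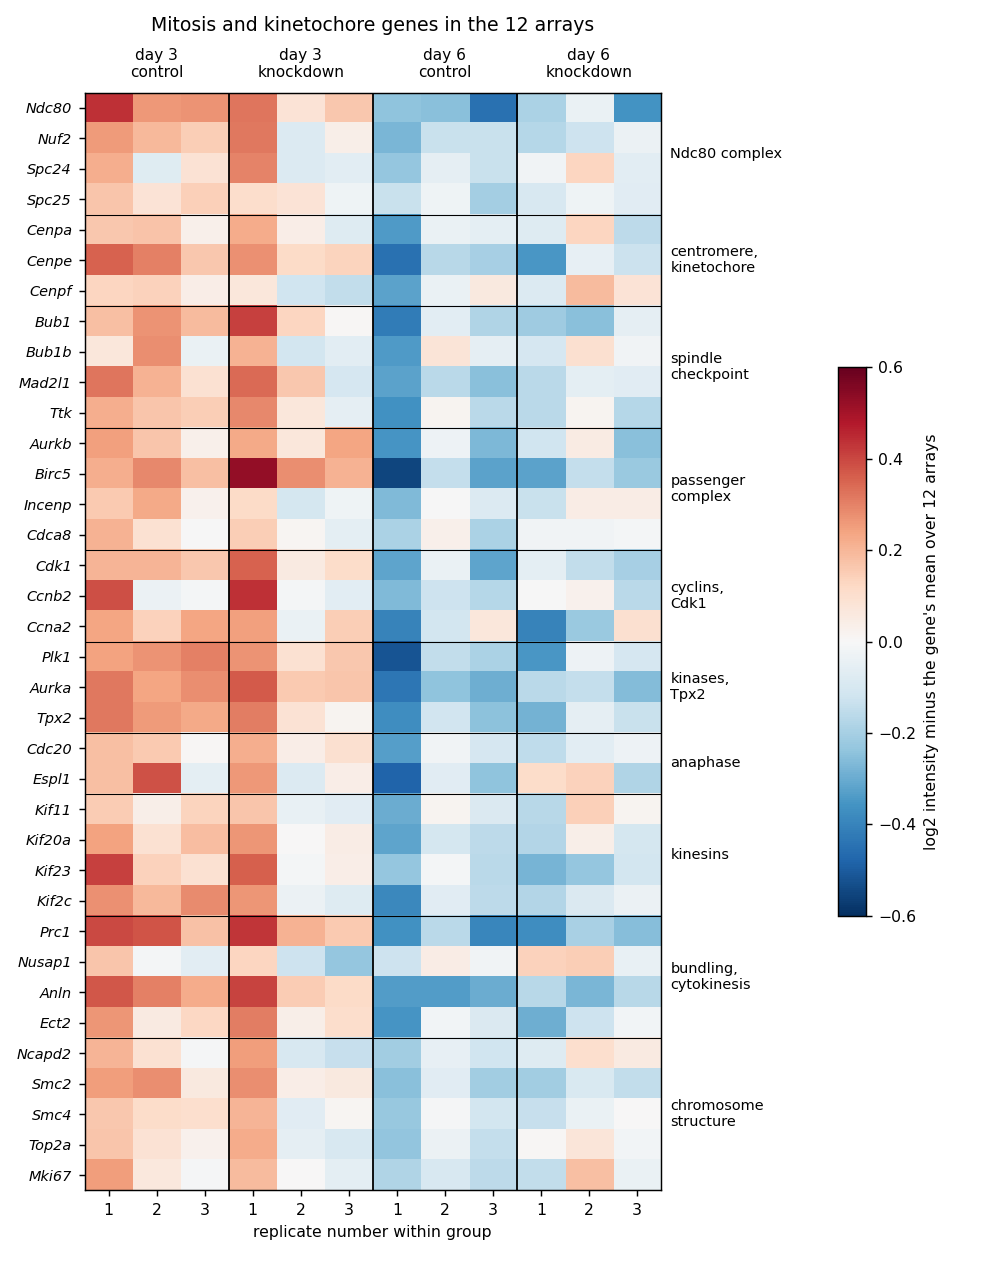
Heat map of 36 mitosis and kinetochore genes (rows, grouped by role) in 12 arrays (columns, by group and replicate number); colour is the log2 intensity minus that gene's mean over the 12 arrays, from −0.6 (blue) to 0.6 (red). Day 3 control arrays are mostly red and day 6 control arrays mostly blue, replicate 1 of the day 3 knockdown is the reddest of its group, and replicate 1 of the day 6 control is the bluest array.

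The number of falls that passed varied with the arrays used. Fits with arrays left out use fewer samples, and the share of all genes that passed in them is not given here. The lower counts are thus not shown to be particular to these genes. In the control, 8 of the 21 passed whichever array or replicate number was left out: Ndc80, Cenpe, Birc5, Plk1, Aurka, Tpx2, Prc1 and Anln. Without replicate 1 of the day 6 control 12 genes fell, without replicate number 1 at both days 8 fell, and without number 3 at both days 10 fell. In the knockdown, 4 of the 11 passed in every such case, namely Birc5, Aurka, Prc1 and Anln. The knockdown count was 4 without replicate 1 of day 3, 6 without replicate 1 of day 6 and 7 without replicate 3 of day 6. Without numbers 1, 2 and 3 at both days it was 4, 7 and 6. Without the day 3 knockdown array that stood apart in its interferon genes it was 9.

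Cells entering mitosis switch on many of these genes together, and their promoters are known for the cell cycle homology region (CHR), an element bound by the DREAM and B-Myb complexes, often set beside CCAAT boxes bound by NF-Y. The table of RefSeq promoters (build GRCm38.p6) held 31 of the 38 genes. The letters TTTGAA on either strand, or the palindrome TTTAAA, occurred within the last 150 bases before the annotated start in 15 of the 31 (48.4%), against 16.8% of all 27025 promoters in the table and 12% of the 13817 of genes tested here. The letters CCAAT on either strand occurred in 23 of the 31 (74.2%), against 27.7% and 29.8%. Both occurred in 13 of the 31 (41.9%), against 4.24% and 3.39%. The 31 include Ccnb1 and Ncapg, which were not measured. Of the 29 measured, 13 (44.8%) held CHR letters, 22 (75.9%) CCAAT letters and 12 (41.4%) both. A match is a run of letters and does not show that a factor bound there. The 6 promoters below were picked from described genes that hold the CHR letters, in order of the size of their control log2 difference over time. They show where these letters lie. Ndc80, Anln and Aurka, whose falls were among the largest, held no CHR letters in this window. Whether the letters go with the fall was not tested. Prc1, Plk1, Kif2c, Espl1 and Cdk1 fell there, and Ect2 did not pass. Each is the 150 bases before the start on the gene's own strand, with CHR letters and CCAAT letters (reading TTCAAA or ATTGG where the match is on the other strand) in capitals.
Prc1, chr7:80294326-80294475, plus strand: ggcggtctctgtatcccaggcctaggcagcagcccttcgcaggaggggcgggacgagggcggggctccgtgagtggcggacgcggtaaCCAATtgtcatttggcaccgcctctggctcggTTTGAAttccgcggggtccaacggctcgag
Plk1, chr7:122159285-122159434, plus strand: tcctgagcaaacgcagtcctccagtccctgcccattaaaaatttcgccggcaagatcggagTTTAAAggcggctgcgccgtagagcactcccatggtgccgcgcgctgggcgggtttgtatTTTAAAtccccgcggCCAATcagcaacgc
Kif2c, chr4:117178773-117178922, minus strand: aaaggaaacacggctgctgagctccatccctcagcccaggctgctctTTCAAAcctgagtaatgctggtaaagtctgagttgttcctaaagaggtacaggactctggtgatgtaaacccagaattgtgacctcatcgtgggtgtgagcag
Espl1, chr15:102296143-102296292, plus strand: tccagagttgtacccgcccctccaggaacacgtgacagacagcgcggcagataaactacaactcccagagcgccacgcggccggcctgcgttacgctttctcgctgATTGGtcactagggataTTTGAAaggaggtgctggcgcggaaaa
Cdk1, chr10:69352913-69353062, minus strand: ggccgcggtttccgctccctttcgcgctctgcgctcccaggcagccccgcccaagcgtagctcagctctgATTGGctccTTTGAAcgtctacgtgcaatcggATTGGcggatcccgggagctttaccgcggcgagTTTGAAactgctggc
Ect2, chr3:27153879-27154028, minus strand: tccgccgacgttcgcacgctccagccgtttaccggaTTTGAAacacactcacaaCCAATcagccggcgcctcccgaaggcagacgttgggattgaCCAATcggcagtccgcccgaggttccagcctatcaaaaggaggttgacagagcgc
In Prc1, Espl1 and Cdk1 a CHR match began 30, 27 and 15 bases before the start, with a CCAAT match 62, 44 and 48 bases before it. Plk1 held its CCAAT match nearest the start, at 14 bases, behind CHR matches at 89 and 29 bases. The single CHR match of Kif2c lay 103 bases before the start, with no CCAAT match in the window, and that of Ect2 lay 114 bases before it. In the table's whole window, which extends further before the start and a little beyond it, 27 of the 31 genes (87.1%) held CHR letters, against 30.6% of all promoters.

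The Ndc80 complex is the microtubule-binding part of the outer kinetochore, and 3 of its 4 genes fell in the control (Ndc80, Nuf2, Spc25) and 1 in the knockdown (Ndc80). Ndc80 read 9.56, 9.38 and 9.39 in the day 3 control arrays, always in the order of replicates 1 to 3, and 8.88, 8.87 and 8.67 in the day 6 control arrays. It read 9.44, 9.20 and 9.28 in the day 3 knockdown and 8.93, 9.08 and 8.76 in the day 6 knockdown. In both cell groups all day 6 arrays lay below all day 3 arrays, the lowest being replicate 3. Ndc80 fell by 0.64 ± 0.10 (SE) in the control (limma, adjusted p = 8.77e-04) and by 0.38 ± 0.10 in the knockdown (adjusted p = 0.0159). Its partner Nuf2, with which it forms the arm that reaches the microtubule, read 9.51, 9.45 and 9.40 at day 3 and 8.98, 9.12 and 9.12 at day 6 in the control. In knockdown arrays Nuf2 read 9.57, 9.17 and 9.29 and then 9.08, 9.13 and 9.22, so that the days overlapped there. Nuf2 fell by 0.38 ± 0.09 in the control (adjusted p = 0.0132), and the knockdown value was −0.20 ± 0.09 (adjusted p = 0.159). Of the subunits that anchor the complex to the centromere side, Spc25 fell by 0.26 in the control and Spc24 had a difference of −0.22 that did not pass (adjusted p = 0.2).

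Among the centromere and kinetochore proteins, 1 of 3 fell in each cell group, and it was Cenpe, a kinesin that carries chromosomes along microtubules. Cenpe read 9.83, 9.78 and 9.64 at day 3 and 9.03, 9.31 and 9.28 at day 6 in the control. Knockdown arrays read 9.75, 9.59 and 9.61 and then 9.13, 9.43 and 9.35. The days did not overlap in either cell group, and replicate 1 was the lowest day 6 array in both. Cenpe fell by 0.54 ± 0.10 in the control (limma, adjusted p = 0.00246) and by 0.35 ± 0.10 in the knockdown (adjusted p = 0.0255). Cenpf, a large protein of the fibrous corona, read 8.46, 8.47 and 8.37 at day 3 and 8.01, 8.29 and 8.39 at day 6 in the control, and these overlapped. In the knockdown it read 8.40, 8.21 and 8.18 at day 3 and 8.25, 8.52 and 8.41 at day 6. Its differences were −0.21 ± 0.10 in the control (adjusted p = 0.196) and 0.13 ± 0.10 in the knockdown (adjusted p = 0.422). Cenpa, the histone H3 variant that marks the centromere, had −0.27 in the control (adjusted p = 0.106).

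The spindle assembly checkpoint genes fell in 3 of 4 cases in the control (Mad2l1, Bub1, Ttk) and 1 of 4 in the knockdown (Bub1). Mad2l1 encodes Mad2, the protein that binds Cdc20 in the inhibitory complex. It read 8.94, 8.83 and 8.71 at day 3 and 8.30, 8.46 and 8.37 at day 6 in the control, and 8.96, 8.78 and 8.52 and then 8.46, 8.56 and 8.55 in the knockdown. The control days were apart and the knockdown days overlapped through replicate 3 of day 3. Mad2l1 fell by 0.45 ± 0.10 in the control (limma, adjusted p = 0.0089), and the knockdown value was −0.23 ± 0.10 (adjusted p = 0.145). Bub1, the kinase that recruits checkpoint proteins to the kinetochore, read 9.15, 9.24 and 9.16 at day 3 and 8.55, 8.91 and 8.79 at day 6 in the control. Knockdown arrays read 9.38, 9.10 and 8.98 and then 8.76, 8.72 and 8.92, with no overlap. Bub1 fell by 0.43 ± 0.11 in the control (adjusted p = 0.016) and by 0.35 ± 0.11 in the knockdown (adjusted p = 0.042), the latter not passing with the replicate number as a block (adjusted p = 0.0548). Ttk, the kinase that starts checkpoint signalling, fell by 0.35 in the control (adjusted p = 0.0391), and Bub1b had −0.20 (adjusted p = 0.285).

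In the chromosomal passenger complex, which corrects faulty attachments, 2 of 4 genes fell in the control (Birc5, Aurkb) and 1 in the knockdown (Birc5). Birc5 encodes survivin, which places the complex on the chromosome. It read 7.68, 7.75 and 7.64 at day 3 and 6.91, 7.32 and 7.14 at day 6 in the control, and 7.99, 7.74 and 7.67 and then 7.14, 7.32 and 7.24 in the knockdown. No day 6 array reached a day 3 array, and the fall was 0.57 ± 0.11 in both cell groups (limma, adjusted p = 0.00313 and 0.00293). Incenp, the scaffold of the complex, read 8.72, 8.79 and 8.59 at day 3 and 8.30, 8.56 and 8.48 at day 6 in the control. In the knockdown it read 8.68, 8.46 and 8.54 at day 3 and 8.43, 8.61 and 8.61 at day 6, which overlapped. Neither value passed, −0.25 ± 0.09 in the control (adjusted p = 0.0723) and −0.01 ± 0.09 in the knockdown (adjusted p = 0.938), where the sign turned with renewed quantile normalisation. The kinase of the complex, Aurkb, fell by 0.36 in the control (adjusted p = 0.0253), and Cdca8 had −0.22 (adjusted p = 0.0838).

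Cdk1, the kinase whose activity defines mitosis, fell in both cell groups, and the other 2 genes of its role, the cyclins, passed in neither. It read 9.41, 9.41 and 9.37 at day 3 and 8.89, 9.17 and 8.89 at day 6 in the control. Its knockdown arrays read 9.56, 9.26 and 9.32 at day 3 and 9.15, 9.06 and 9.01 at day 6. The days did not overlap, and Cdk1 fell by 0.41 ± 0.09 in the control (limma, adjusted p = 0.00849) and by 0.31 ± 0.09 in the knockdown (adjusted p = 0.0354). Cyclin A2 (Ccna2), which acts from DNA replication to early mitosis, read 10.55, 10.45 and 10.55 at day 3 and 9.91, 10.20 and 10.38 at day 6 in the control. In the knockdown its values were 10.56, 10.27 and 10.46 and then 9.91, 10.09 and 10.41. The day 6 arrays of both cell groups were widely spread, from 9.91 in replicate 1 upwards, and neither −0.36 ± 0.13 (adjusted p = 0.0917) nor −0.30 ± 0.13 (adjusted p = 0.155) passed. Cyclin B2 (Ccnb2), a partner of Cdk1, had −0.30 in the control (adjusted p = 0.159).

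The spindle kinases Plk1 and Aurka and the Aurka activator Tpx2 were the only role group in which every gene fell in both cell groups. Plk1 read 10.32, 10.35 and 10.38 at day 3 and 9.56, 9.93 and 9.89 at day 6 in the control, and 10.35, 10.17 and 10.24 and then 9.73, 10.05 and 9.98 in the knockdown. Its replicate 1 was the lowest day 6 array in each cell group. Plk1 fell by 0.56 ± 0.10 in the control (limma, adjusted p = 0.00298) and by 0.33 ± 0.10 in the knockdown (adjusted p = 0.0426). Aurka, which matures centrosomes, read 9.49, 9.41 and 9.45 at day 3 and 8.74, 8.93 and 8.88 at day 6 in the control, and 9.54, 9.33 and 9.34 and then 9.01, 9.03 and 8.91 in the knockdown. It fell by 0.60 ± 0.07 (adjusted p = 2.06e-04) and by 0.42 ± 0.07 (adjusted p = 0.00198), with no overlap of days. Tpx2 read 10.20, 10.14 and 10.11 at day 3 and 9.51, 9.77 and 9.64 at day 6 in the control, and 10.19, 9.97 and 9.90 and then 9.60, 9.83 and 9.75 in the knockdown. Its days were likewise apart, and it fell by 0.51 ± 0.09 (adjusted p = 0.00254) and by 0.29 ± 0.09 (adjusted p = 0.042). The knockdown calls of Plk1 and Tpx2 each passed in only 4 of 9 other alternatives, and in 1 and 2 of the 9 fits with arrays left out.

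Cdc20, the activator that starts anaphase, and Espl1, which encodes the separase that cuts cohesin, both fell in the control, close to the threshold, and did not pass in the knockdown. Cdc20 read 10.48, 10.46 and 10.31 at day 3 and 9.97, 10.28 and 10.20 at day 6 in the control, and 10.52, 10.34 and 10.40 and then 10.15, 10.24 and 10.27 in the knockdown. The days were apart in both, by a narrow gap. It fell by 0.27 ± 0.08 in the control (limma, adjusted p = 0.0469), which passed in 3 of 9 other alternatives and not with the replicate number as a block (adjusted p = 0.0595), and the knockdown value was −0.20 ± 0.08 (adjusted p = 0.123). Espl1 read 7.36, 7.56 and 7.12 at day 3 and 6.70, 7.11 and 6.94 at day 6 in the control, where the lowest day 3 array stood just above the highest day 6 array. The knockdown values were 7.44, 7.10 and 7.22 and then 7.29, 7.32 and 7.00, which overlapped. Espl1 fell by 0.43 ± 0.14 in the control (adjusted p = 0.0492), which passed in 4 of 9 other alternatives, and the knockdown value was −0.05 ± 0.14 (adjusted p = 0.848).

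Of the 4 mitotic kinesins, 3 fell in the control (Kif2c, Kif20a, Kif23) and 0 in the knockdown. Kif2c, which dismantles microtubule ends at the centromere, read 9.74, 9.66 and 9.75 at day 3 and 9.08, 9.40 and 9.31 at day 6 in the control. In the knockdown it read 9.73, 9.43 and 9.39 and then 9.29, 9.38 and 9.43, where only replicate 1 of day 3 stood above the rest. Kif2c fell by 0.46 ± 0.10 in the control (limma, adjusted p = 0.00741), and the knockdown value was −0.15 ± 0.10 (adjusted p = 0.339). Kif20a, a motor of the central spindle, read 10.41, 10.26 and 10.35 at day 3 and 9.85, 10.06 and 10.01 at day 6 in the control, and 10.43, 10.17 and 10.21 and then 9.99, 10.20 and 10.06 in the knockdown. The control days were apart, and replicate 2 of day 6 overlapped in the knockdown. Kif20a fell by 0.37 ± 0.09 in the control (adjusted p = 0.0117), and the knockdown value was −0.19 ± 0.09 (adjusted p = 0.169). Kif23, of the centralspindlin complex, fell by 0.35 in the control (adjusted p = 0.0461), and Kif11, the motor that pushes spindle poles apart, had −0.23 (adjusted p = 0.151).

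Prc1 and Anln, of the group for spindle bundling and cytokinesis, fell in both cell groups, and Ect2 and Nusap1 passed in neither. Prc1, which bundles the microtubules of the central spindle, read 10.23, 10.21 and 10.01 at day 3 and 9.47, 9.67 and 9.44 at day 6 in the control, and 10.26, 10.04 and 9.99 and then 9.46, 9.64 and 9.58 in the knockdown. The gap between the days was wider than the range within any group, and Prc1 fell by 0.63 ± 0.09 (limma, adjusted p = 7.89e-04) and by 0.54 ± 0.09 (adjusted p = 0.00185). Anln encodes anillin, which ties the contractile ring to the membrane. It read 11.19, 11.12 and 11.04 at day 3 and 10.48, 10.48 and 10.52 at day 6 in the control, where the SD was 0.02. The knockdown values were 11.22, 10.97 and 10.93 and then 10.65, 10.54 and 10.65. Anln fell by 0.62 ± 0.08 (adjusted p = 2.52e-04) and by 0.42 ± 0.08 (adjusted p = 0.00271). Ect2, the exchange factor that activates RhoA at the cleavage site, read 11.23, 11.02 and 11.09 at day 3 and 10.61, 10.95 and 10.88 at day 6 in the control, and 11.27, 11.00 and 11.07 and then 10.67, 10.84 and 10.95 in the knockdown. Its days were apart but replicate 1 was well below the others at day 6, and −0.30 ± 0.11 (adjusted p = 0.0771) and −0.29 ± 0.11 (adjusted p = 0.0788) did not pass. Nusap1, a microtubule-associated protein of the spindle, had the smallest difference in the control, −0.07 ± 0.10 (adjusted p = 0.718), and the highest in the knockdown, 0.15 ± 0.10 (adjusted p = 0.326).

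Of the 5 genes of chromosome structure, the condensin core Smc2 fell in both cell groups and the other 4 passed in neither. Smc2 read 9.46, 9.49 and 9.27 at day 3 and 8.96, 9.14 and 9.00 at day 6 in the control, and 9.49, 9.25 and 9.27 and then 9.00, 9.12 and 9.06 in the knockdown. The days were apart in both, and it fell by 0.38 ± 0.08 (limma, adjusted p = 0.00922) and by 0.27 ± 0.08 (adjusted p = 0.0413). The knockdown call of Smc2 passed in 4 of 9 other alternatives and in 1 of the 9 fits with arrays left out. Mki67, whose product Ki-67 coats mitotic chromosomes and is the common marker of cycling cells, read 10.81, 10.62 and 10.55 at day 3 and 10.38, 10.46 and 10.40 at day 6 in the control. In the knockdown it read 10.75, 10.56 and 10.50 and then 10.41, 10.74 and 10.52, replicates 2 and 3 of day 6 lying within the day 3 range. Neither −0.25 ± 0.10 (adjusted p = 0.106) nor −0.05 ± 0.10 (adjusted p = 0.788) passed. Top2a, the topoisomerase that untangles sister chromatids, read 10.21, 10.13 and 10.07 at day 3 and 9.81, 10.01 and 9.90 at day 6 in the control, and 10.27, 9.99 and 9.95 and then 10.05, 10.12 and 10.03 in the knockdown. Its value was −0.23 ± 0.08 in the control (adjusted p = 0.0791) and −0.00 ± 0.08 in the knockdown (adjusted p = 0.999). Smc4, the partner of Smc2, had −0.25 in the control (adjusted p = 0.0502) and the condensin subunit Ncapd2 −0.22 (adjusted p = 0.165).

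**Figure D2:**
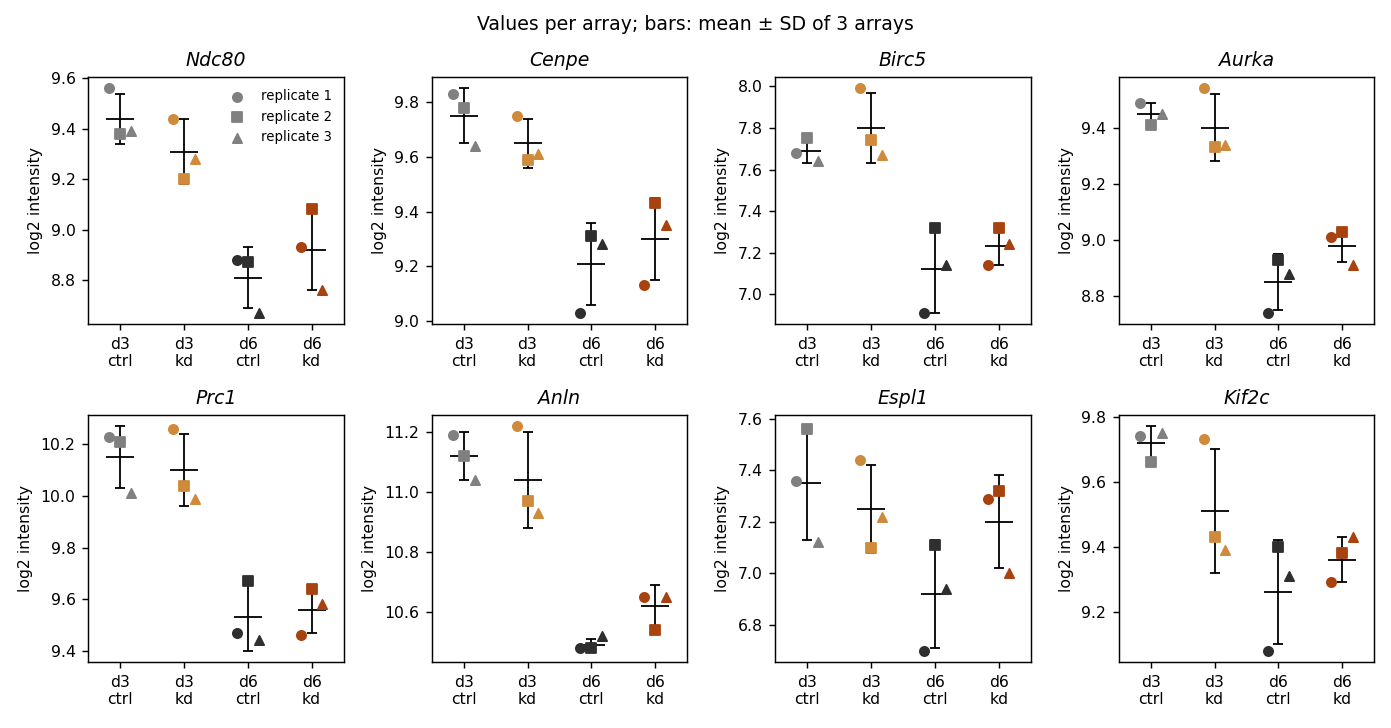
Log2 intensity (vertical axis, a scale of its own in each panel) of 8 genes in the 12 arrays by group (horizontal axis: day 3 or day 6, control or knockdown); symbols mark the replicate number, and bars give the mean ± SD of 3 arrays. Day 6 lies below day 3 in both cell groups for Ndc80, Cenpe, Birc5, Aurka, Prc1 and Anln, and the knockdown days overlap for Espl1 and Kif2c.

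**Figure D3:**
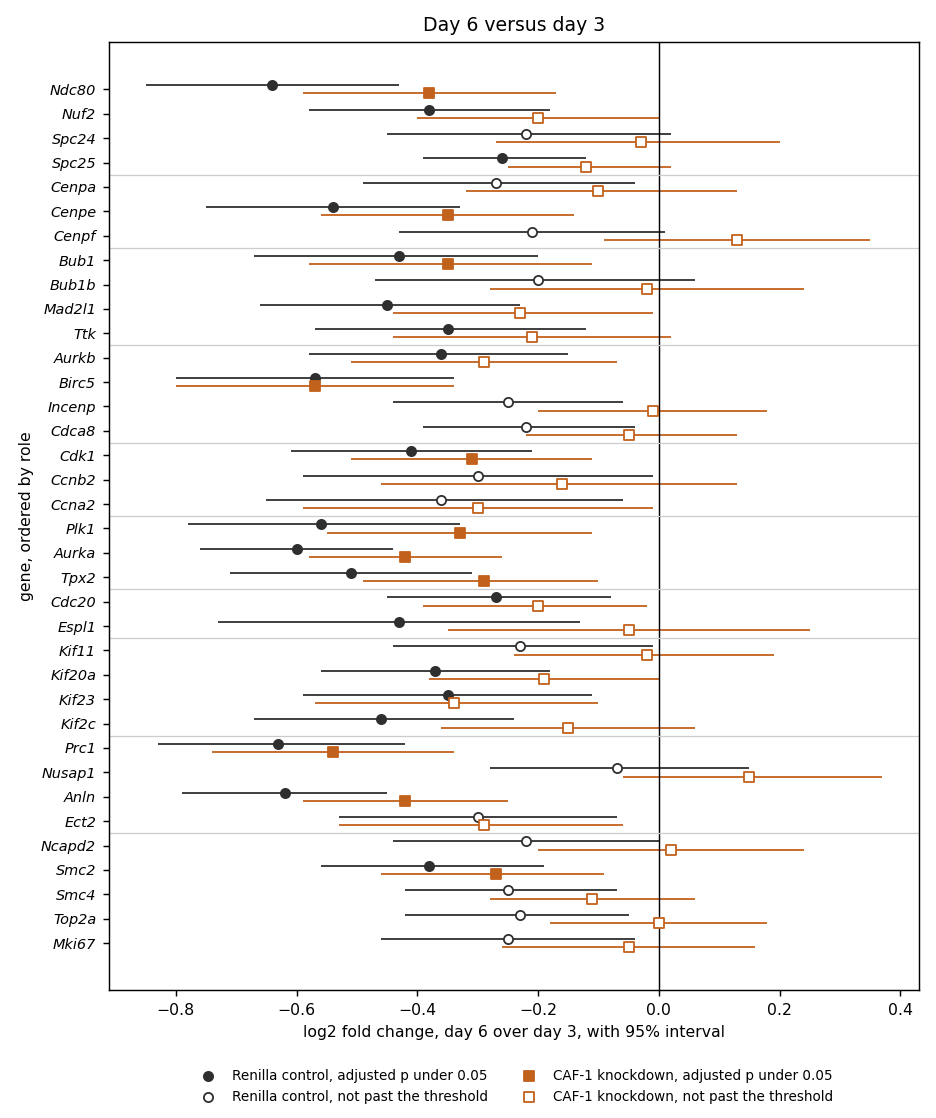
Log2 fold change of day 6 over day 3 (horizontal axis) with its 95% interval for 36 genes in role order (vertical axis), in control cells (circles) and knockdown cells (squares); filled symbols had an adjusted p under 0.05. The control value lies left of the knockdown value for 36 of 36 genes, Birc5 by less than can be seen, and the intervals of the cell groups overlap for each gene.

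The log2 difference of day 6 from day 3 was lower in the control than in the knockdown for all 36 genes, but the contrast between the cell groups passed for none. In the test of that contrast, which is the knockdown effect at day 6 minus the knockdown effect at day 3, 0 of 36 genes passed in either direction, as did 0% of all genes. The median was 0.18, and 50.8% of all genes had a positive sign. At an unadjusted p under 0.05 there were 2 of the 36, against 5.1% of all genes: Cenpf with 0.34 ± 0.14 and Kif2c with 0.31 ± 0.14, and both had an adjusted p of 0.972 in limma. For Birc5 the difference was 0.00 ± 0.15, and its sign turned when arrays were centred on their medians. Over 8 other alternatives the contrast changed sign in 4 of the 36, Aurkb, Birc5, Kif23 and Ect2, and over the left-out arrays in 7.

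At day 3 the hairpin against CAF-1 moved none of the 36 genes past the threshold. The count was 0 higher and 0 lower, against 0% of all genes in each direction, and 0 of the 36 passed at an unadjusted p under 0.05, against 6.01% of all genes. Of the differences 31 were negative, where 54.2% of all genes were, with a median of −0.08 and a lowest adjusted p of 0.844 in limma. The median was −0.15, −0.03 and −0.02 without replicate 1, 2 and 3 of the knockdown, replicate 2 being the array with high interferon genes. For 0 of the 36 did all knockdown arrays lie below all control arrays, against 5.59% of all genes. Kif2c had the lowest value, −0.20 ± 0.10 (95% interval −0.42 to 0.01). Its control arrays read 9.66 to 9.75, and 1 knockdown array, replicate 1 at 9.73, lay among them while the other two lay at 9.43 and 9.39. Cenpf followed with −0.18 ± 0.10 (adjusted p = 0.868), and Birc5 had the highest value, 0.11 ± 0.11 (adjusted p = 0.933).

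At day 6 no gene of the 36 passed either, and the signs were mostly the other way. The count was 0 higher and 0 lower, against 0.0392% and 0% of all genes, and 0 passed at an unadjusted p under 0.05, against 4.44% of all genes. Of the differences 34 were positive, where 46.2% of all genes were, with a median of 0.10 and an adjusted p of 0.999 for every gene in limma. The median was 0.03 without replicate 1 of the control. In 21 of the 36 all 3 knockdown arrays were above the control array of the same replicate number, as in 13.3% of all genes. The knockdown arrays lay wholly above the control arrays for 2 of the 36, Top2a and Anln, against 5% of all genes. Espl1 had the highest value, 0.29 ± 0.14 (95% interval −0.01 to 0.58), and replicate 1 of the control, at 6.70, was its lowest array. For Top2a the knockdown arrays at 10.03 to 10.12 stood above the control arrays at 9.81 to 10.01, with a difference of 0.17 ± 0.08 (95% interval −0.02 to 0.35). Kif23 had the lowest value, −0.07 ± 0.11 (adjusted p = 0.999). The distance from a fitted value to the bound of its 95% interval had a median of 0.21 over the 36 genes, before any adjustment for the number of genes.

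**Figure D4:**
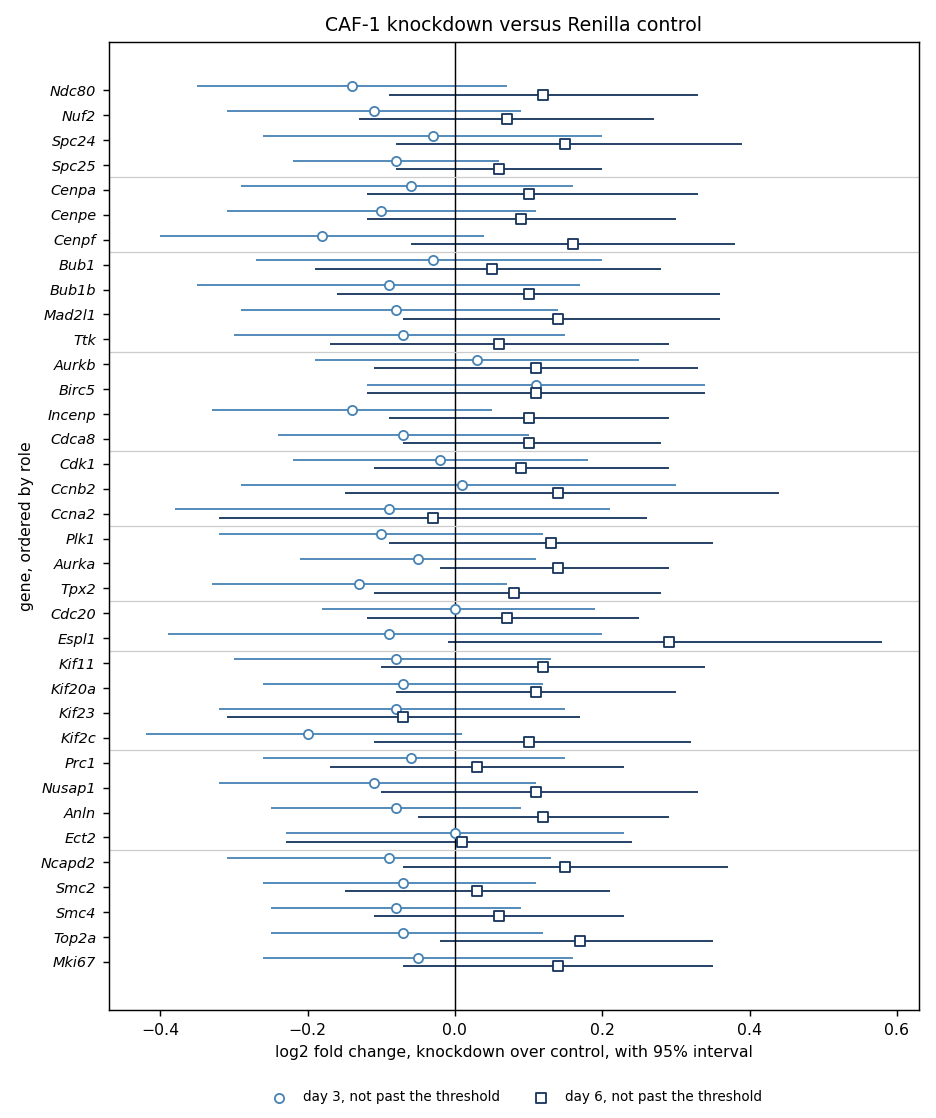
Log2 fold change of knockdown over control (horizontal axis) with its 95% interval for 36 genes in role order (vertical axis), at day 3 (circles) and day 6 (squares); open symbols did not pass the threshold. Values at day 3 run from −0.20 (Kif2c) to 0.11 (Birc5) and at day 6 from −0.07 (Kif23) to 0.29 (Espl1), and every interval includes 0.

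The 36 genes moved together from array to array within a group. The mean over the 36 genes of the centred log2 values was 0.24, 0.17 and 0.11 in the day 3 control and −0.32, −0.08 and −0.17 in the day 6 control. It was 0.27, 0.02 and 0.02 in the day 3 knockdown and −0.16, −0.03 and −0.09 in the day 6 knockdown. The day 3 arrays were all above the day 6 arrays in both cell groups, and in each group replicate 1 stood farthest from 0. Replicate 1 of the day 3 knockdown was the highest of its group for 35 of the 36 genes, against 38.8% of all genes, and the highest of all 12 arrays for 21, against 10.3%. Replicate 1 of the day 6 control was the lowest of its group for 31 of the 36, against 37.4% of all genes, and the lowest of all 12 for 29, against 11.4%. Within a group the median SD of the 36 genes was 0.08 and 0.15 in the day 3 control and knockdown, and 0.13 and 0.10 at day 6, where that of all genes was 0.08 to 0.09.

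Read by replicate number, the control cells had a mean difference of day 6 from day 3 of −0.56, −0.25 and −0.28 for numbers 1, 2 and 3, and the knockdown cells of −0.43, −0.05 and −0.11. With number 1, 36 of the 36 genes were lower at day 6 in the control and 35 in the knockdown. With numbers 2 and 3 it was 34 and 34 in the control but 22 and 24 in the knockdown. The drop over time was thus of 1 sign in every pair and largest in number 1. The knockdown difference at day 3 was 0.03, −0.15 and −0.09 by number, with 12, 35 and 32 genes lower, and at day 6 it was 0.16, 0.05 and 0.08, with 34, 23 and 33 genes higher. Without number 1 at both days the median of the 36 was −0.23 in the control and −0.08 in the knockdown. Replicate 1 of both day 6 groups also had the highest fibroblast marker means, given above. Of the 11 markers tested 1 (Pdgfrb) rose with time in each cell group, where 6.99% and 7.46% of all genes rose. These markers had median differences of 0.18 and 0.13 in control and knockdown. Their part in the fall of the mitosis genes was not tested.

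**Figure D5:**
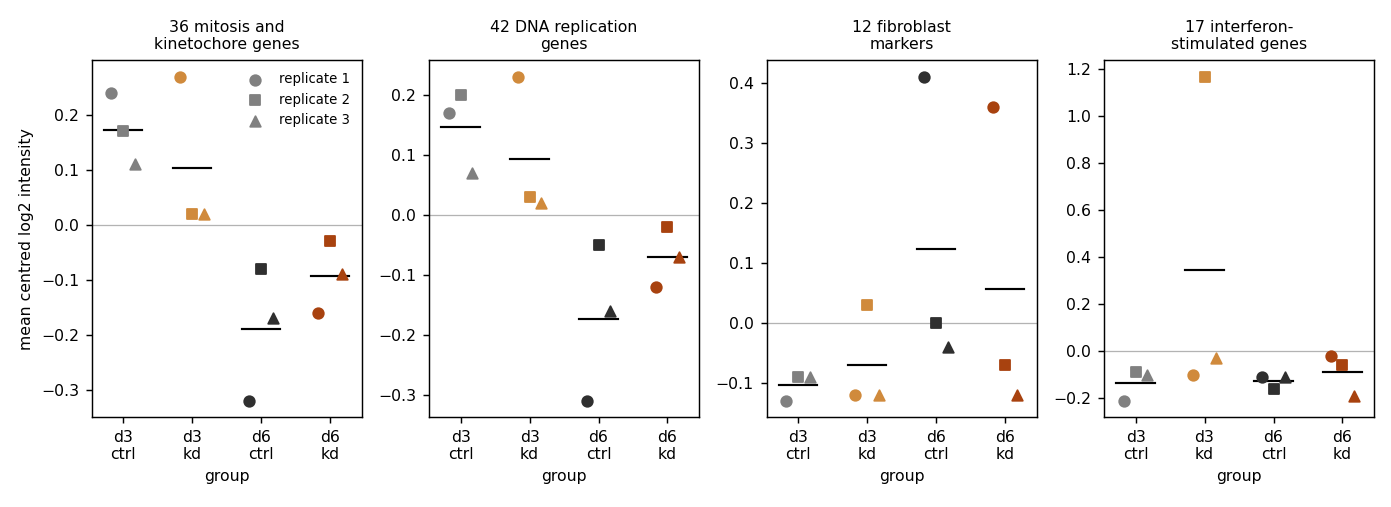
Mean over a gene list of log2 intensities centred gene by gene (vertical axis, a scale of its own in each panel) in each array, by group (d3, day 3; d6, day 6; ctrl, control; kd, knockdown) with the replicate number as symbol and the group mean as a bar. The mitosis and DNA replication panels show day 3 arrays above day 6 arrays, replicate 1 of both day 6 groups stands at 0.41 and 0.36 in the fibroblast panel, and replicate 2 of the day 3 knockdown stands at 1.17 in the interferon panel.

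A wider list of mitosis genes, made of 106 other centromere, spindle, checkpoint, cohesin and cytokinesis genes of which 99 were tested, moved the same way with time. In the control 48 of the 99 fell and 0 rose, where 10.6% of all genes fell and 6.99% rose. The median was −0.29. The 3 largest falls were those of Cep55 (0.96 ± 0.11, limma, adjusted p = 1.32e-04), which recruits the abscission machinery to the midbody, Spdl1 (0.73 ± 0.11), which brings dynein to kinetochores, and Zwilch (0.71 ± 0.08), a subunit of the complex Spdl1 works with. In the knockdown 18 fell and 2 rose, where 10.5% of all genes fell and 7.46% rose. The median there was −0.15. Cep55 again fell most, by 0.82 ± 0.11 (adjusted p = 3.22e-04), then Spdl1 by 0.53 ± 0.11 and the minus-end kinesin Kifc1 by 0.46 ± 0.10. The pair that rose were cohesin subunits, Smc3 and Stag1, each by 0.19 (adjusted p = 0.0302 and 0.0354). Knockdown against control gave 0 of 99 in each direction at both days, with medians of −0.06 and 0.07. Its smallest p at day 3 belonged to Mad1l1 (−0.20) and Iqgap3 (−0.22), and at day 6 to Cenph (0.26) and Mybl2 (0.36), with adjusted p of 0.726 to 0.995 in limma.

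Genes of DNA replication, which act before mitosis, gave a like picture in the control, and in the knockdown in their median and signs only. Of 42 tested, 21 fell and 0 rose in the control, where 10.6% of all genes fell and 6.99% rose. In the knockdown 4 fell (Pola2, Fen1, Rrm2 and Tk1) and 0 rose, where 10.5% of all genes fell and 7.46% rose. There the falls were no more frequent than over all genes. The medians were −0.31 and −0.16. All 42 differences were negative in the control and 40 in the knockdown. Their mean by array was 0.17, 0.20 and 0.07 in the day 3 control, 0.23, 0.03 and 0.02 in the day 3 knockdown, −0.31, −0.05 and −0.16 in the day 6 control, and −0.12, −0.02 and −0.07 in the day 6 knockdown. The arrays that were highest and lowest for the mitosis genes, replicate 1 of the day 3 knockdown and replicate 1 of the day 6 control, were the same for these. Knockdown against control moved 0 of 42 at either day, with medians of −0.05 and 0.10.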

How the data were processed

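Per the labels, 100 ng of total RNA per sample was amplified, labelled with biotin and hybridised to Affymetrix arrays. The deposited values are RMA signal intensities on a linear scale (4.71 to 13421), which the authors made with version 1.3.0.187 of the Affymetrix Expression Console, as the submitters' processing notes give it; the genome build of the array is not given in the sources used here. Of 41345 probe sets 23521 named 1 gene, and the one with the highest mean stood for a gene. Log2 intensities were kept where they reached the array's own 30th percentile in at least 3 arrays and fitted with limma 3.58.1 (R 4.3.3), a mean per group over 12 arrays, two-sided, Benjamini-Hochberg adjustment over 17860 genes, threshold 0.05; the fit was tested on simulated data. SE is that of a fitted log2 difference. The labels do not say whether replicates were separate embryos or cultures, so p-values measure only the spread between these samples, and the number of arrays limits the precision. Same-numbered arrays of compared groups deviated together (r = 0.14 to 0.37 over 17860 genes in 12 of 12 pairs; −0.28 to 0.02 for different numbers), so the numbers pair the samples; the fit without the block is given unless the block changed a call. The genes, lists and rules were chosen with earlier results of these data known. Values in every array are given for genes past the threshold (at most 10 per comparison by size, or the 2 smallest p) and the brightest gene of each role. Alternatives tried were the replicate block, no filter, a 50th percentile filter, the mean of a gene's probe sets, renewed quantile normalisation, arrays centred on their medians, array weights, all probe sets together, only the groups compared, and each array left out. Promoter sequences are RefSeq's.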

Additional observations from a re-analysis of the deposited data

How the results depend on the processing

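No gene of the 36 passed in a knockdown comparison, or in the difference between days, under any alternative run. With the replicate block 20 genes fell in the control and 10 in the knockdown, and no call changed beyond those of Cdc20 and Bub1. In the control the count of 21 ran from 8 to 23 over the left-out arrays and the median from −0.41 to −0.23. In the knockdown the count of 11 was 7 with renewed quantile normalisation, 7 with array weights, 5 with all probe sets together and 6 with only the groups compared, and ran from 4 to 9 over the left-out arrays, with the median from −0.27 to −0.08. Leaving out arrays and fitting only the groups compared use fewer samples, and the cause of the other changes was not tested. The share of all genes that passed under each alternative is not given here. The changed counts are thus not shown to be particular to these genes. Values near 0 changed sign. Under the other alternatives 0 of the 36 did so over time in the control, 6 over time in the knockdown, 2 for the knockdown at day 3, 1 at day 6 and 4 for the difference between days. Over the left-out arrays the counts were 1, 11, 15, 10 and 7. Values are given here only for genes whose estimate in that comparison is discussed in full. With array weights these included Espl1 at day 3 (0.01), Incenp (0.02), Top2a (0.03) and Mki67 (0.01) over time in the knockdown, and the differences between days of Birc5 (−0.02) and Kif23 (−0.02). With renewed quantile normalisation they included Incenp (0.02), Top2a (0.04) and the difference of Kif23 (−0.00), and with centring that of Birc5 (−0.00). Over the left-out arrays, such values ran from −0.21 to 0.09 (Espl1) and −0.20 to 0.01 (Kif23) for the knockdown at day 3, from −0.13 to 0.00 (Kif23) at day 6, and from −0.11 to 0.10 (Birc5) and −0.09 to 0.13 (Kif23) for the difference between days. Over time they ran from −0.13 to 0.05 for Nusap1 in the control, and in the knockdown from −0.09 to 0.10 for Incenp, −0.18 to 0.05 for Espl1, −0.07 to 0.11 for Top2a and −0.16 to 0.10 for Mki67.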

Other observations

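A list of Cdk inhibitors and p53 targets, only some of which hold cells in the gap phases of the cycle, moved unevenly with time. Of the 18 tested, 6 rose and 1 fell (Mdm2, which targets p53 for breakdown) in the control between day 3 and day 6 (limma, adjusted p under 0.05), where 6.99% of all genes rose and 10.6% fell, and the median difference was 0.11. The 5 that rose in the knockdown, Cdkn1b, Cdkn1c, Cdkn2a, Cdkn2b and Sesn1, were among the 6 of the control, and the sixth was Btg2. Cdkn2d and Mdm2 fell in the knockdown, where the median was 0.06. Of all genes 7.46% rose and 10.5% fell in the knockdown. These genes were named after their values were seen. Knockdown against control gave 0 higher and 0 lower of the 18 at either day, with medians of 0.05 and −0.04. The mean of the 18 by array was −0.11 to −0.09 in the day 3 control and 0.10 to 0.11 in the day 6 control. In the knockdown it was −0.01, −0.10 and −0.09 at day 3 and 0.14, 0.02 and 0.04 at day 6. Replicate 1 was the highest knockdown array at each day.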
